A study of Bos taurus with 3 samples.

Results

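Tight junctions seal the space between neighbouring cells, and 9 genes that build them were followed in single cells of the newborn bovine rumen. The genes were the 9 rows of the count matrices, out of 27270 rows in all, whose symbol was CLDN1, CLDN4, CLDN5, CLDN7, OCLN, MARVELD2, F11R, TJP1 or CGN, and each symbol named exactly 1 row. The tissue was the ventral rumen sac of 3 newborn dairy calves, taken 1 day after birth with the muscle layers stripped off, and no treatment was named for them. Each calf gave 1 droplet library of enzymatically dissociated cells, so calf and library cannot be told apart, and the adult cattle of the study were not analysed here. What was asked of the data was in which cells of the newborn rumen each junction gene was found, at what level, and how far the calves differed.

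Claudins are small proteins with 4 membrane-spanning stretches whose strands close the space between cells, and which claudins a cell uses sets how tight and how ion-selective its junction is. Occludin (OCLN) and tricellulin (MARVELD2) are MARVEL-domain proteins of the same strands, tricellulin at the corners where 3 cells meet. F11R (JAM-A) is an immunoglobulin-like adhesion molecule of the junction, TJP1 (ZO-1) is the scaffold that ties claudins to actin, and CGN (cingulin) is a cytoplasmic linker of that plaque. In the rumen, a stratified squamous epithelium that absorbs short-chain fatty acids, the barrier is known to depend on junctions between the living cell layers under the horny surface.

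The libraries held 7529, 12043 and 11656 barcodes with 82263092, 89803289 and 106145091 counts of unique molecular identifiers (UMIs, 1 for each captured RNA molecule). Of these, 4935, 10737 and 10543 barcodes had 500 to 4000 detected genes, and 24042 cells were left after the other filters. Between 21 and 37 barcodes were shared by a pair of libraries, at most 0.385% of a library. The cells were sorted by marker genes into 21148 epithelial, 1320 endothelial, 772 fibroblast (mural cells included) and 802 immune cells, and all tight junction genes were kept out of the clustering and of the marker lists, including CLDN5, which the study itself used to mark endothelium, and CLDN1 and CLDN4, which it used to mark granule cells. Calf 1 gave only 10 immune and 22 fibroblast cells, against 712 and 410 in calf 3, so its values in these classes were imprecise and its immune cells entered no test. The summed level of the 7 epithelial markers was 169 to 211 UMIs per 10000 in epithelial cells but also 5.46 to 10.6 in endothelial, 11.8 to 98.9 in fibroblast and 8.40 to 30.6 in immune cells, so epithelial RNA was counted in every class.

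CLDN1 and CLDN4 were the leading junction genes of the epithelium, CLDN5 was the leading one of the endothelium, and F11R and TJP1 were found in both with the higher level in endothelium. CLDN1 stood at 3.19 ± 1.28 UMIs per 10000 (SD, n = 3 calves) and CLDN4 at 2.77 ± 0.457 in epithelial cells. F11R followed with 0.584 ± 0.108, CGN with 0.176 ± 0.0763 and TJP1 with 0.112 ± 0.0605. MARVELD2 (0.0614 ± 0.0110), CLDN7 (0.0604 ± 0.0527) and OCLN (0.0370 ± 0.00882) were the lowest of the epithelial members, each within 1 SD of the next. In the same order, CLDN1 and CLDN4 did not differ beyond the spread of the calves, nor did CGN and TJP1, while the gaps from CLDN4 to F11R and from F11R to CGN were larger than it. UMIs are counted at the 3′ end of a transcript and were not scaled by length, so the order between genes also depends on how well each 3′ end is annotated and captured.

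**Figure D1:**
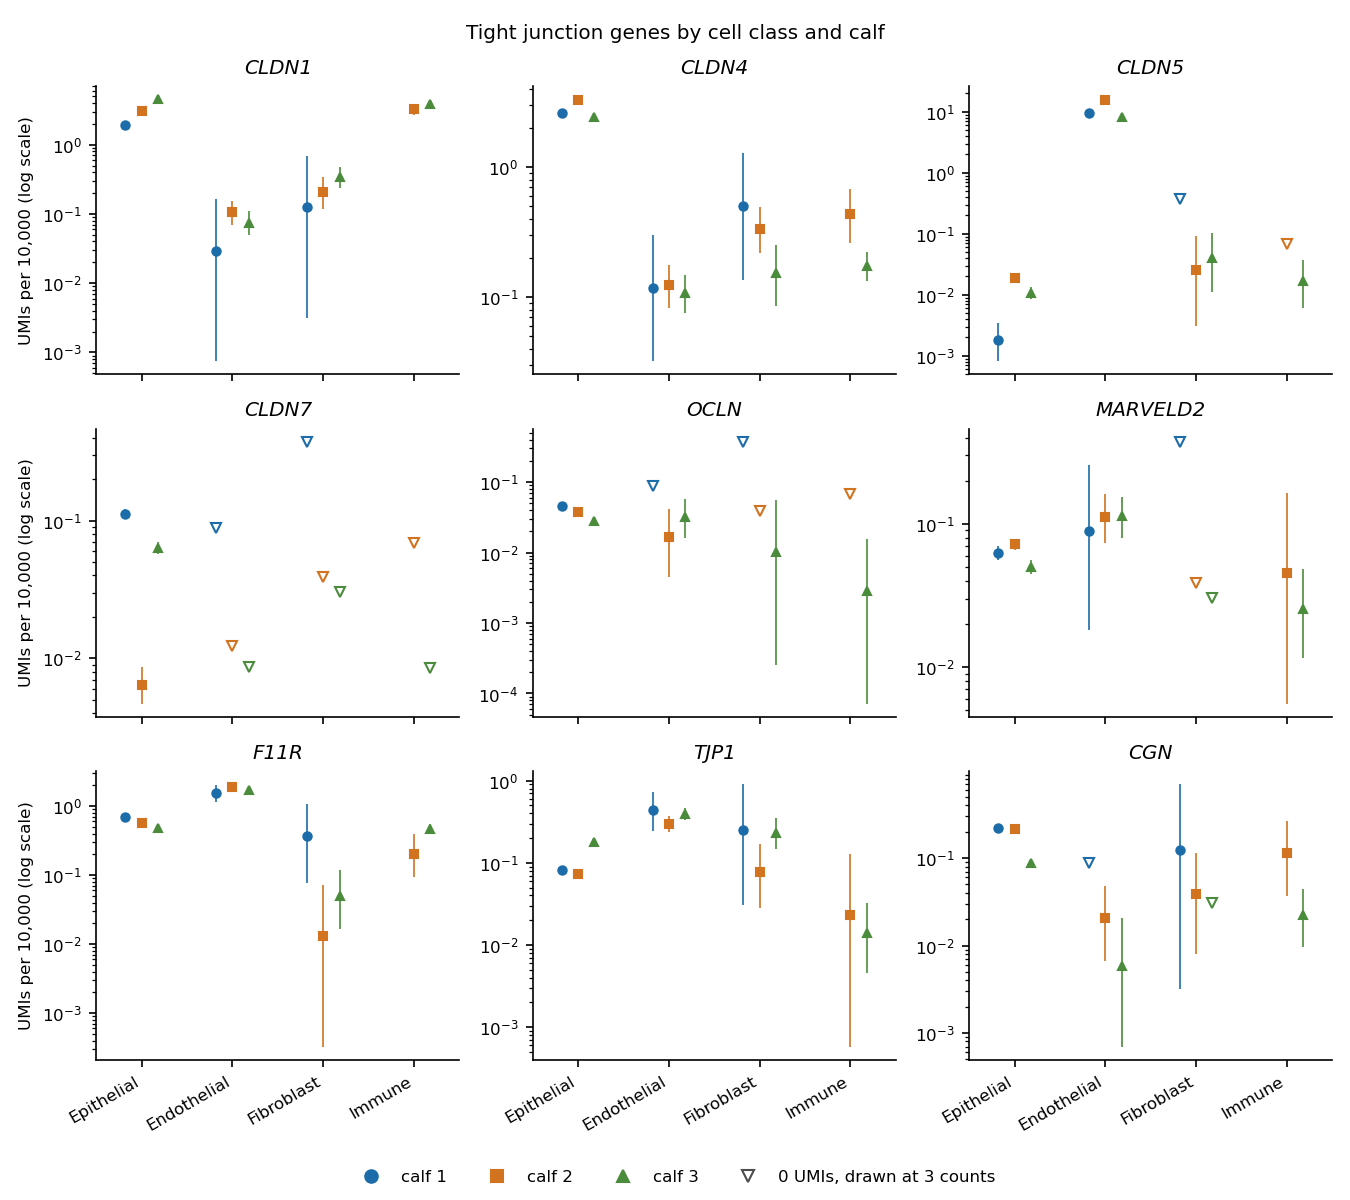
Level of each of the 9 genes in UMIs per 10000 (log scale) in the 4 cell classes of each calf, with the 95% Poisson interval of the count as a bar; open triangles stand at the level of 3 counts where no UMI was found, and the 10 immune cells of calf 1 are left out. CLDN1 is at 1.94 to 4.50 in epithelial cells and at 3.22 and 3.81 in the immune cells of calves 2 and 3, while CLDN5 is at 8.20 to 15.6 in endothelial cells and at most 0.0405 in the other classes.

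Because deep cells show more genes, shares of cells with a UMI were taken from cells thinned at random to 2000 UMIs, shallower cells being left out. In calves 1, 2 and 3, a CLDN1 UMI was then found in 29.6%, 42.7% and 55.4% of epithelial cells, and a CLDN4 UMI in 32.2%, 39.2% and 28.7%. The 95% Clopper-Pearson intervals, which cover counting error only, spanned under 3 percentage points for each of these shares, so the calves differed beyond counting error. F11R was found in 10.8% ± 2.17 of thinned epithelial cells, CGN in 3.55% ± 1.50, TJP1 in 2.16% ± 1.28, MARVELD2 in 1.29% ± 0.289, CLDN7 in 1.07% ± 0.938 and OCLN in 0.712% ± 0.195. Unthinned, the shares were 77.1% ± 9.38 for CLDN1 and 65.0% ± 7.05 for CLDN4, and 38.8% ± 9.69 for F11R, which shows how strongly a share depends on the depth of the cell. A cell in which a gene was not found at this depth cannot be read as lacking it. With 3 calves, an exact paired sign-flip test cannot give a p below 0.25, so shares were not tested.

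At least 1 of the 4 claudins was found in 52.2%, 64.5% and 67.6% of thinned epithelial cells and in 61.2%, 76.5% and 48.7% of thinned endothelial cells. In fibroblasts the shares were 6.92% and 7.30% in calves 2 and 3. The immune cells gave 37.1% and 37.0% in the same 2 calves. The immune share was thus well above that of fibroblasts, and in the immune class 1506 UMIs were of CLDN1, against 81 of CLDN4, 6 of CLDN5 and none of CLDN7.

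To compare the classes, counts were summed per calf and class and tested by the quasi-likelihood method of edgeR, blocked by calf, with Benjamini-Hochberg adjustment over all 11529 genes tested. OCLN did not pass the filter on low counts in this fit and was not tested between classes. Of the 8 members tested between endothelial and epithelial cells, 3 were higher in endothelium, where 23.9% of all genes were called higher, and 4 were lower, where 22.7% of all genes were. The members' median log2 difference was -1.83, against -0.00 over all genes.

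**Figure D2:**
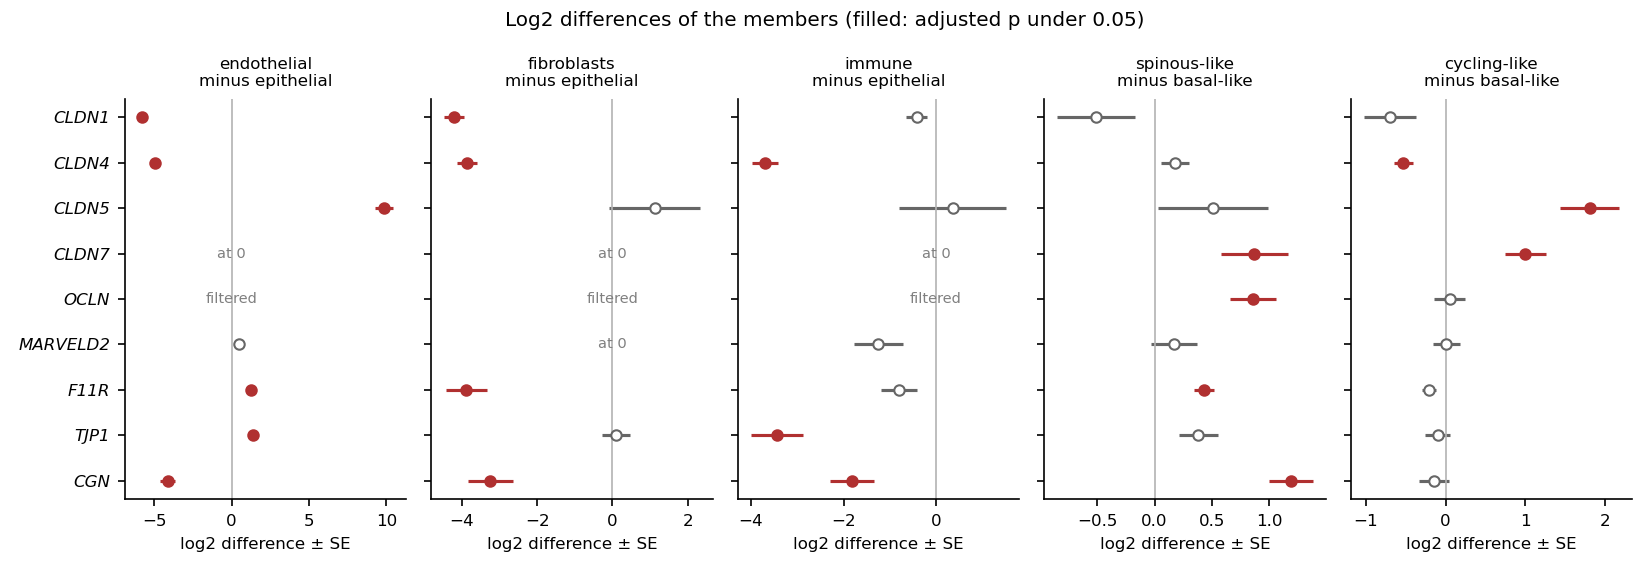
Log2 difference (x axis, with its SE as a bar) of each gene in 5 comparisons of counts summed per calf, with filled points where edgeR's adjusted p was under 0.05; "at 0" marks genes with no UMI in the first class and "filtered" marks OCLN where it was not tested. CLDN5 (9.85), TJP1 (1.41) and F11R (1.24) lie to the right in endothelium, and CGN has the largest difference (1.19) among the called genes between spinous-like and basal-like cells.

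CLDN5, the claudin of blood vessel walls, was the member that set endothelium apart. It was counted 329, 3798 and 2834 times in the endothelial cells of calves 1, 2 and 3, or 9.69, 15.6 and 8.20 UMIs per 10000. In epithelial cells it was counted 9, 127 and 74 times, or 0.00178, 0.0190 and 0.0108 per 10000. The groups did not overlap, and the log2 difference was 9.85 ± 0.60 (SE), with an edgeR adjusted p of 1.1e-06. Thinned endothelial cells had a CLDN5 UMI in 61.2%, 76.1% and 47.7% of cases, against at most 0.328% of epithelial cells.

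F11R, the adhesion molecule JAM-A, stood at 1.53, 1.89 and 1.74 UMIs per 10000 in the endothelial cells of the 3 calves and at 0.70, 0.565 and 0.486 in their epithelial cells. Every endothelial value was above every epithelial one, with a log2 difference of 1.24 ± 0.29 (SE) and an edgeR adjusted p of 0.0036. TJP1, the ZO-1 scaffold, stood at 0.442, 0.299 and 0.396 in endothelium and at 0.0820, 0.0722 and 0.181 in epithelium. Again the groups did not overlap, and the log2 difference was 1.41 ± 0.28, with an edgeR adjusted p of 0.0004. MARVELD2 had 0.0884, 0.111 and 0.113 UMIs per 10000 in endothelium from only 3, 27 and 39 UMIs, and 0.0622, 0.0720 and 0.0501 in epithelium. Its log2 difference of 0.48 ± 0.34 did not pass (edgeR adjusted p = 0.28).

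CLDN1 and CLDN4, the claudins of the epithelium, were found in endothelial cells at 0.0704 ± 0.0388 and 0.116 ± 0.00816 UMIs per 10000 (SD, n = 3), log2 differences of -5.81 ± 0.27 (edgeR adjusted p = 1.2e-11) and -4.94 ± 0.26 (adjusted p = 5.5e-11). These low values were set against the epithelial RNA counted there. In the 3 calves, CLDN1 in endothelium was at 1.52%, 3.43% and 1.67% of its epithelial level and CLDN4 at 4.53%, 3.75% and 4.43%, while 6 epithelial markers (EPCAM, KRT5, KRT14, KRT15, PERP and SFN) had medians of 5.21%, 5.10% and 3.34% and reached up to 7.42%, 5.98% and 4.82%. The remaining marker of the list, CDH1, was left out of these 6 and was at 3.87%, 8.08% and 1.34%. Neither claudin exceeded the highest marker in any calf, and how much of their UMIs was carried-over epithelial RNA was not tested. CGN was likewise lower (log2 difference -4.14 ± 0.48, edgeR adjusted p = 1.5e-06), with 7 UMIs in 1320 endothelial cells, at no UMI, 9.44% and 6.57% of its epithelial level, the latter values being above the highest marker. F11R and TJP1 in endothelium were at 219% to 358% and 218% to 539% of the epithelial level.

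CLDN7 was listed with no UMI in any endothelial, fibroblast or immune cell. Taking 3 counts over a class as the limit, its level was at least 11.6-fold lower in endothelial, 3.44-fold lower in fibroblast and 7.55-fold lower in immune cells than over all epithelial cells (0.0560 UMIs per 10000). Since the calves differed in CLDN7, the UMIs that each calf's own epithelial level would give were also summed, to 27.2, 7.63 and 23.3, which set the limits at 9.07-, 2.54- and 7.78-fold. The edgeR adjusted p of the 3 comparisons were 0.00026, 0.0088 and 0.0012, but with DESeq2 none of the 3 passed, at 0.26, 0.49 and 0.48. MARVELD2 had no UMI in fibroblasts, at least 3.76-fold lower than in epithelium, or 3.67-fold within calves (edgeR adjusted p = 0.00071). OCLN was counted 15 times in endothelial cells, none of them in calf 1, at 0.0164 and 0.0318 UMIs per 10000 in calves 2 and 3 against 0.0377 and 0.0278 in their epithelial cells, and 1 time each in fibroblasts and immune cells.

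Within the endothelium, CLDN5 and F11R were at different levels in 2 clusters. The larger, of 964 cells, was led by RNASE1, SELP, LYVE1 and PLVAP, and the smaller, of 355 cells, by BMX, HEY1, GJA4 and CXCL12. SELP is an adhesion receptor for leukocytes and PLVAP a protein of endothelial pores, while GJA4 is a connexin and HEY1 a Notch target of arterial endothelium. CLDN5 stood at 5.46, 11.3 and 2.75 UMIs per 10000 in the larger cluster and at 25.3, 35.9 and 20.1 in the smaller one. F11R was at 1.28, 1.81 and 1.37 in the larger and at 2.48, 2.30 and 2.53 in the smaller. Both genes were higher in the smaller cluster in all 3 calves, and none of their values overlapped between the clusters, although the smaller cluster had only 18 cells in calf 1. TJP1 was higher in the smaller cluster in calves 1 and 3 (1.10 against 0.263 and 0.590 against 0.308) but not in calf 2 (0.211 against 0.318). MARVELD2 was at 0.138, 0.258 and 0.184 in the smaller and 0.0753, 0.0795 and 0.0801 in the larger, from 1, 11 and 20 and from 2, 16 and 19 UMIs. These clusters were formed from the expression of other genes and were not tested against each other. The share of all genes that separate them likewise is not given here.

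**Figure D3:**
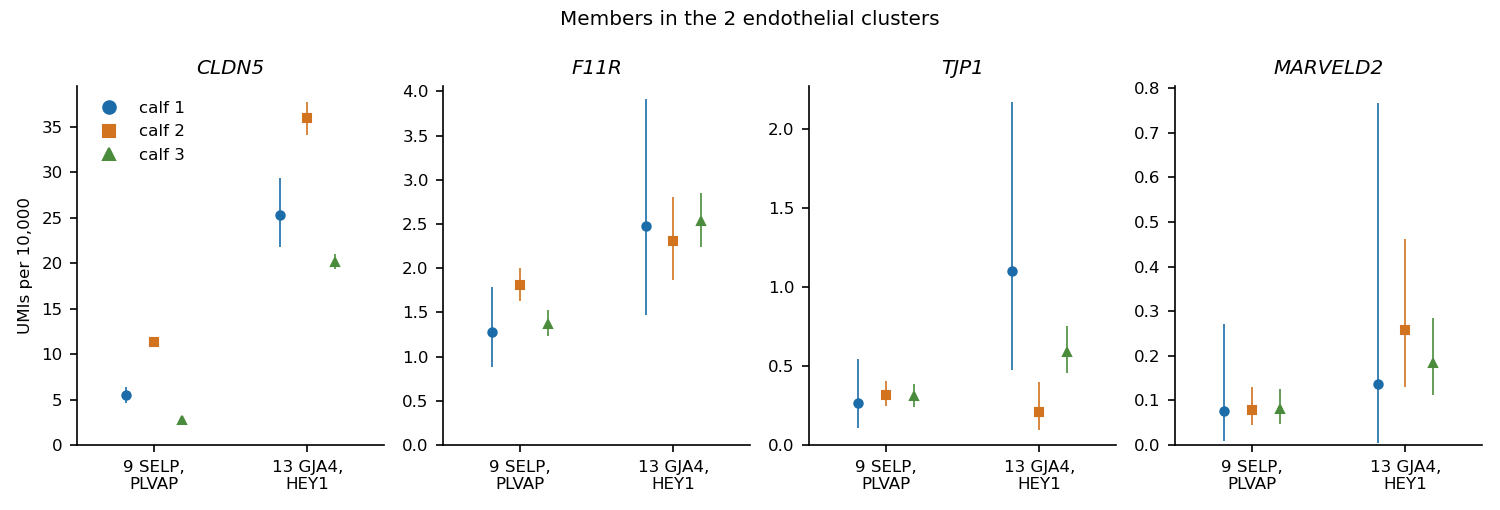
Level of CLDN5, F11R, TJP1 and MARVELD2 in UMIs per 10000 in the 2 endothelial clusters of each calf, named by number and 2 leading genes, with 95% Poisson intervals of the counts. CLDN5 is at 2.75 to 11.3 in the cluster with SELP and PLVAP and at 20.1 to 35.9 in the one with GJA4 and HEY1.

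In fibroblasts, none of the 8 members tested was called higher than in epithelium, where 19.1% of all genes were, and 6 were lower, against 18.6% of all genes. CLDN1 (log2 difference -4.21 ± 0.26, edgeR adjusted p = 9.4e-10) and CLDN4 (-3.87 ± 0.27, adjusted p = 3.3e-09) were lower. In calves 2 and 3 they stood at 6.65% and 7.64% and at 10.2% and 6.29% of the epithelial level, beside marker medians of 9.02% and 7.37%. F11R was lower too (-3.88 ± 0.55, adjusted p = 9.2e-05), with 9 UMIs in 772 cells, as was CGN (-3.24 ± 0.60, adjusted p = 0.00034). TJP1 was the one member tested that was counted in fibroblasts at or above its epithelial level in each calf. TJP1 stood at 0.249, 0.0776 and 0.233 UMIs per 10000, from only 2, 6 and 23 UMIs, against 0.0820, 0.0722 and 0.181 in epithelium. Its log2 difference of 0.10 ± 0.38 did not pass (edgeR adjusted p = 0.88). CLDN5 in fibroblasts came from 6 UMIs and did not pass either (log2 difference 1.12 ± 1.2, adjusted p = 0.53).

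In immune cells, none of the 8 members was called higher than in epithelium, where 22.4% of all genes were, and 4 were lower, against 23.3% of all genes. These were CLDN4 (log2 difference -3.69 ± 0.28, edgeR adjusted p = 1.4e-08), TJP1 (-3.44 ± 0.57, adjusted p = 9.5e-05), CGN (-1.82 ± 0.48, adjusted p = 0.0047) and CLDN7. A cluster of 37 immune cells led by COL17A1, KRT15 and other basal keratinocyte genes was part of this class. Without it, CLDN4 went from 0.434 to 0.111 UMIs per 10000 in calf 2 and from 0.174 to 0.124 in calf 3, and CGN from 0.114 to no UMI and from 0.0225 to 0.0173. F11R (-0.79 ± 0.39, adjusted p = 0.12), MARVELD2 (-1.25 ± 0.53, adjusted p = 0.066) and CLDN5 (0.36 ± 1.16, adjusted p = 0.84) did not pass. Without calf 3, which held most of the immune cells, TJP1 (adjusted p = 0.34) and CGN (0.22) were no longer called.

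CLDN1 was the exception among the claudins in immune cells. It was counted 141 and 1356 times in the immune cells of calves 2 and 3, or 3.22 and 3.81 UMIs per 10000, against 3.11 and 4.50 in the epithelial cells of the same calves. The log2 difference of -0.42 ± 0.23 did not pass (edgeR adjusted p = 0.15), and leaving out the keratin-bearing cluster gave 3.25 and 3.77. In these calves the 6 epithelial markers were at medians of only 10.6% and 4.71% of their epithelial level in immune cells, whereas CLDN1 was at 104% and 84.6%. CDH1, the listed epithelial marker left out of these 6, was like CLDN1 at a high level, 75.1% and 129%.

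The immune CLDN1 lay in a few clusters. In a cluster of 266 cells led by RBP4, FCER1A, CD1E and CD1B, CLDN1 was at 6.5 UMIs per 10000 in calf 2 (27 cells, 95% Poisson interval 5.30 to 7.88) and 6.56 in calf 3 (236 cells, 6.17 to 6.97), and 92.6% and 91.9% of the cells had a UMI of it. CD1E and CD1B belong to the CD1 family, which presents lipid antigens, and FCER1A is a chain of the high-affinity IgE receptor. A cluster led by DNASE1L3, CLEC9A and BATF3 had 3.54 in the 62 cells of calf 3 but 1 UMI in 3 cells of calf 2 (0.317, interval 0.00803 to 1.77), and one led by APOE, FOLR2 and VSIG4 had 3.66 in 40 cells. In contrast, the cluster led by GIMAP7, CD8B and CD27 was at 0.221 in 130 cells of calf 3, the one with IL17F and ICOS at 0.392 in 50 cells, the one with FCN1 and S100A9 at 0.280 in 23 cells, and the one with GCM2 and PECAM1 had no CLDN1 UMI in 33 cells. Clusters 4, 9 and 10, led by KLRB1, BLK and JCHAIN among others, had 1 UMI each in calf 3.

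**Figure D4:**
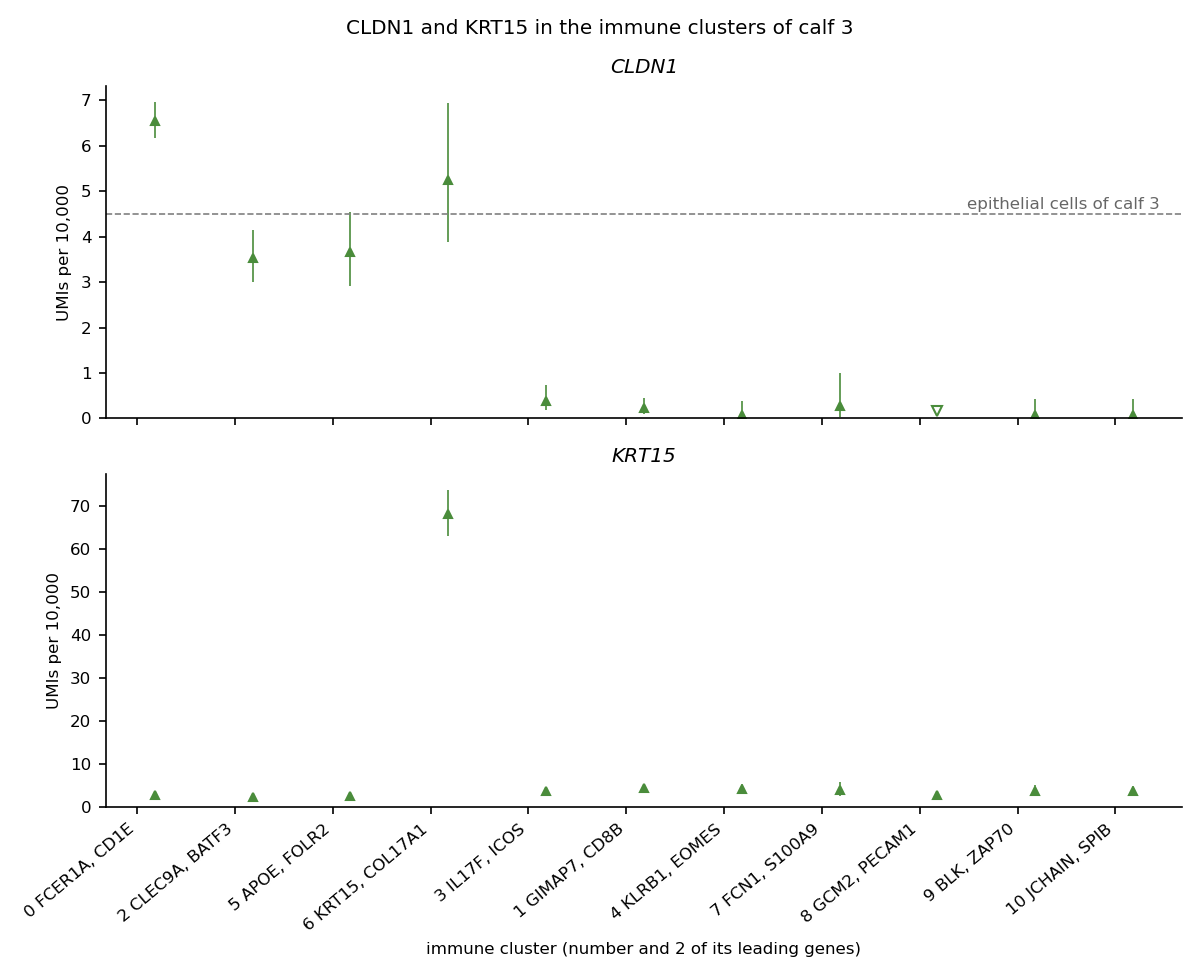
Levels of CLDN1 (top) and of the keratin gene KRT15 (bottom) in UMIs per 10000 in the immune clusters of calf 3 with at least 20 cells, with 95% Poisson intervals; the dashed line is the CLDN1 level of the epithelial cells of calf 3 and the open triangle marks 0 UMIs, drawn at 3 counts. CLDN1 is at 6.56, 3.54 and 3.66 in the first 3 clusters while their KRT15 stays at 2.74, 2.37 and 2.60, close to that of the clusters with little CLDN1, and cluster 6, at 5.26 for CLDN1, is the one with a high KRT15 level (68.2).

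The level of KRT15, an abundant keratin of the basal layer, did not follow CLDN1 across these clusters. KRT15 was at 2.74 UMIs per 10000 in the FCER1A- and CD1E-led cluster of calf 3 and at 4.36 in the GIMAP7- and CD8B-led one, where CLDN1 was at 0.221. In the former, CLDN1 was at 209% and 146% of the epithelial level in calves 2 and 3 and the epithelial markers at medians of 3.71% and 2.50%. In the latter, CLDN1 was at 4.91% and the markers at 5.28%. Within the FCER1A- and CD1E-led cluster of calf 3, the 217 cells with CLDN1 had 2.70 KRT15 UMIs per 10000 and the 19 cells without it had 3.43. KRT5 was likewise lower in the cells with CLDN1 (1.1 against 1.48), but PERP was higher (0.232 against 0.114). The cells with CLDN1 were deeper, at a median of 6938 against 3951 UMIs. In calf 2, KRT15 was at 4.33 in 25 cells with CLDN1 and at 2.79 in 2 cells without it. Of 2 adhesion genes on the epithelial marker list, EPCAM in that cluster was at 2.07% of its epithelial level in calf 3. CDH1, the gene of E-cadherin and the listed marker left out of the medians above, was at 168%. In calf 2, with 27 cells, CDH1 was at 124% and EPCAM had no UMI. Choosing the cells by a UMI of CD1E or FCER1A, in place of clusters, gave CLDN1 levels of 5.10 and 6.03 in calves 2 and 3, against 1.52 and 0.765 in the other immune cells. Of the other members, F11R was at 0.252 and 0.750 UMIs per 10000 in the FCER1A- and CD1E-led cluster, or 44.7% and 154% of the epithelial level, and at 0.805 in the CLEC9A-led cluster of calf 3, but at 0.0632 in the GIMAP7- and CD8B-led one. MARVELD2 was counted 5 times in the first of these clusters in calf 3 and CLDN4 stayed at 4.41% of its epithelial level. Calf 1 had only 3 cells in the first cluster, so these values rest on 2 calves, and mostly on calf 3.

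Within the epithelium, layers were named only where clusters carried the markers of a layer, which gave 4384 basal-like, 1422 spinous-like and 2973 cycling-like cells and left 12369 cells unnamed. Cluster 8 (1014 cells), led by mitochondrial genes, and cluster 16 (144 cells), of shallow cells, carried basal and cycling markers but were left unnamed. Each named cluster took the name of its highest-scoring marker list, and none was named granule with CLDN1 and CLDN4 withheld. Both spinous-like clusters also scored for the other granule markers. Their mean z-scores over the clusters were 1.56 (cluster 10, the highest of all) and 0.555 (cluster 12), against 2.57 and 0.977 for spinous markers. Spinous and granule cells were thus not set apart within the spinous-like group. Between spinous-like and basal-like cells, 4 of 9 members were higher, where 16.1% of all 11816 genes tested were, and none was lower, where 15.9% of all genes were. The members' median log2 difference was 0.43 against -0.04 over all genes.

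CGN, the cingulin linker, had the largest difference of the 4. It stood at 0.433, 0.375 and 0.227 UMIs per 10000 in the spinous-like cells of calves 1, 2 and 3 and at 0.188, 0.207 and 0.0835 in the basal-like cells. It was higher in spinous-like cells in each calf, with a log2 difference of 1.19 ± 0.19 (SE) and an edgeR adjusted p of 0.00069. By cluster, CGN was at 0.455 ± 0.102 in spinous-like cluster 10 and at 0.219 ± 0.11 in spinous-like cluster 12 (SD, n = 3 calves). Basal-like cells were at 0.160 ± 0.0665, so the difference lay mainly in cluster 10. F11R stood at 0.981, 0.728 and 0.615 against 0.706, 0.575 and 0.500 (log2 difference 0.43 ± 0.09, adjusted p = 0.0041). OCLN stood at 0.0718, 0.0704 and 0.0510 against 0.0404, 0.0366 and 0.0334, with no overlap (0.86 ± 0.20, adjusted p = 0.0054). CLDN7 was higher in spinous-like cells within each calf, at 0.113, 0.00971 and 0.0928 against 0.0673, 0.00497 and 0.0514, and passed more narrowly (0.87 ± 0.29, adjusted p = 0.038). In calf 2 each of its values came from 8 UMIs. CLDN7 was no longer called without calf 1 (adjusted p = 0.18) or without calf 3 (0.16), and OCLN without calf 2 (0.10). All 4 calls depended on comparing layers within calves, and without the calf as a block the adjusted p were 0.24 for CGN, 0.37 for F11R, 0.16 for OCLN and 0.75 for CLDN7.

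The abundant claudins did not separate spinous-like from basal-like cells in this fit. CLDN1 was at 1.87, 0.863 and 2.06 UMIs per 10000 in spinous-like and 1.27, 2.46 and 3.64 in basal-like cells (log2 difference -0.51 ± 0.34, edgeR adjusted p = 0.29), higher in calf 1 and lower in calves 2 and 3. Without calf 1 the difference was -1.08 and was called (adjusted p = 0.0059), but it turned to 0.59 with doublets kept, 0.03 with no upper limit on genes and 0.05 at a clustering resolution of 1.2, none of them called. CLDN4 was at 3.56, 3.32 and 3.04 against 2.89, 3.71 and 2.65 (0.18 ± 0.12, adjusted p = 0.27). Both values changed without a basal-like cluster of 1792 cells led by the heat-shock and stress genes CRYAB and DNAJB1. Without it, a choice made after seeing the data, the difference of CLDN4 was 1.07 and was called (edgeR adjusted p = 7.7e-05), and that of CLDN1 was 0.13 (adjusted p = 0.78). TJP1 (0.38 ± 0.17, adjusted p = 0.11), MARVELD2 (0.17 ± 0.20, adjusted p = 0.55) and CLDN5 (0.51 ± 0.48, adjusted p = 0.45) did not pass. The unnamed epithelial cells were on neither side of this comparison. Their CLDN1 was at 2.88, 4.34 and 5.93 UMIs per 10000 in calves 1, 2 and 3, above each named layer of the same calf.

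Between cycling-like and basal-like cells, 2 of 9 members were higher, against 15.5% of all genes, and 1 was lower, against 12.8%. All 3 calls depended on comparing layers within calves and were lost without the calf as a block. CLDN4 was lower in cycling-like cells, at 2.50, 2.89 and 1.83 UMIs per 10000 against 2.89, 3.71 and 2.65 (log2 difference -0.53 ± 0.12, edgeR adjusted p = 0.0049). The direction did not hold under 4 alternatives, none of which passed: the difference was 0.32 without the heat-shock-led basal-like cluster (adjusted p = 0.073), 0.35 with doublets kept (0.068), 0.15 with no upper limit on genes (0.46) and 0.03 without Harmony (0.98). CLDN7 was higher in calves 1 and 3 (0.162 against 0.0673 and 0.121 against 0.0514) and not in calf 2, where it was counted 2 times in cycling-like cells (1.00 ± 0.26, adjusted p = 0.011). CLDN5 was called higher (1.81 ± 0.37, adjusted p = 0.0031) from 4, 47 and 29 UMIs in cycling-like cells, at most 0.0623 per 10000. These UMIs lay in 4, 12 and 12 of the 1344, 649 and 980 cells, so in calves 2 and 3 few cells with several UMIs each carried the value. It was no longer called without calf 2 (adjusted p = 0.15) or without Harmony (0.34). CLDN1 (-0.70 ± 0.33, adjusted p = 0.16), F11R (-0.21 ± 0.09, adjusted p = 0.11), TJP1 (-0.10 ± 0.16, adjusted p = 0.69), CGN (-0.15 ± 0.19, adjusted p = 0.59), OCLN (0.05 ± 0.19, adjusted p = 0.91) and MARVELD2 (0.01 ± 0.17, adjusted p = 0.97) did not pass.

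CLDN1 and CLDN4 were distributed differently over the 12 epithelial clusters that had at least 50 cells in each calf. CLDN1 was highest in cluster 0, led by RGS4, PLAC8 and KRT8, in all 3 calves, at 3.87, 5.42 and 6.82 UMIs per 10000. It was next highest in calves 1 to 3 at 3.76, 5.06 and 6.35 in cluster 2, led by GRO1, CXCL3 and ATF3. Its lowest values were 0.947 in basal-like cluster 3 of calf 1, and 0.406 and 1.26 in spinous-like cluster 12 of calves 2 and 3, so that the highest cluster exceeded the lowest 4.08-, 13.3- and 5.42-fold. The order of the clusters was alike in the calves, with Spearman rho of 0.84, 0.83 and 0.94 between pairs of calves over the 12 clusters, which share their libraries.

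**Figure D5:**
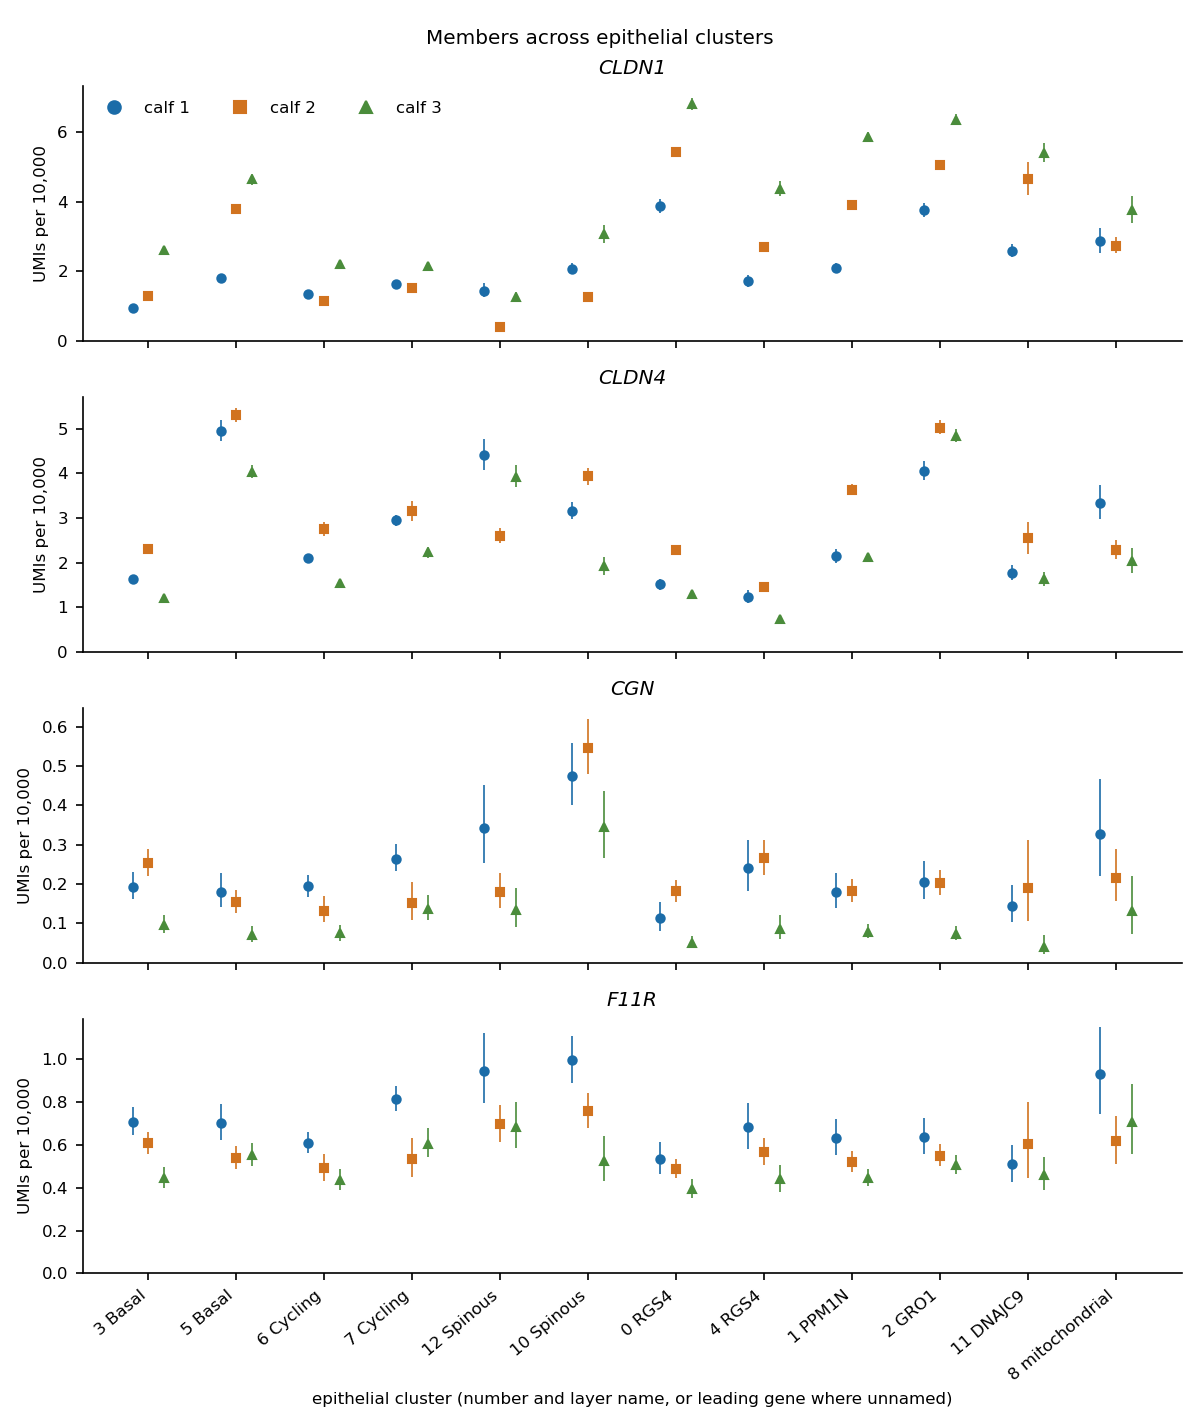
Level of CLDN1, CLDN4, CGN and F11R in UMIs per 10000 in the 12 larger epithelial clusters of each calf, with 95% Poisson intervals; clusters are given by number with the layer their markers name or, where unnamed, a leading gene. CLDN1 peaks in cluster 0 in each calf (3.87, 5.42 and 6.82), CLDN4 in clusters 5 and 2, and CGN in spinous-like cluster 10 (0.475, 0.546 and 0.344).

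CLDN4 was highest in the heat-shock-led basal-like cluster 5 in calves 1 and 2, at 4.96 and 5.31 UMIs per 10000, and in cluster 2 in calf 3, at 4.85. It was lowest in cluster 4, led by RGS4, IFI6 and PLAC8, in all 3 calves, at 1.24, 1.46 and 0.740. Cluster 0, the highest in CLDN1, was among the lower ones in CLDN4, at 1.51, 2.28 and 1.30. Clusters 2 and 5 also had high levels of 11 immediate-early and heat-shock genes (FOS, FOSB, JUN, EGR1, ATF3, IER2, IER3, ZFP36, DNAJB1, HSPA1A and CRYAB, chosen after the clusters were seen), with a summed mean of 130 and 86.2 UMIs per 10000, against 29.1 to 32.5 in the spinous-like clusters, in basal-like cluster 3 and in cluster 4. The list held leading genes of these clusters, ATF3, EGR1 and FOSB of cluster 2 and CRYAB and DNAJB1 of cluster 5. High levels there were thus partly built in by the choice. The clusters were not in the same order for CLDN4, since clusters 0 and 1, at 85.0 and 79.7, were close to cluster 5 in these genes and lower in CLDN4. Spinous-like clusters 12 and 10, low in these genes, came next after clusters 5 and 2 in mean CLDN4, at 3.65 and 3.01.

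Within clusters, CLDN4 was higher in the cells with more of these RNAs. When the epithelial cells of each cluster and calf were split at the median of the summed level of the 11 genes, CLDN4 was 1.82, 1.35 and 1.69 times as high in the upper as in the lower part in calves 1, 2 and 3. The median UMIs per cell were 10299 and 10272.5, 6655 and 6708, and 7856.5 and 7938.5 in the upper and lower parts. The ratio was 1.26, 1.12 and 1.19 for CLDN1, 1.15, 1.29 and 1.16 for OCLN, 1.10, 1.02 and 1.07 for F11R and 1.03, 0.992 and 0.954 for CGN. It was 1.09, 1.05 and 1.05 for CLDN7, 1.06, 0.999 and 1.04 for MARVELD2 and 1.24, 1.4 and 0.962 for the sparse CLDN5. TJP1 went the other way in calves 1 and 2, at 0.835, 0.864 and 1.16. Ratios over all genes are not given here. The part of what raised these 11 genes, and of the dissociation with warm enzymes that all cells went through, in the level of CLDN4 was not tested.

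CGN was highest in spinous-like cluster 10, led by SPINK5, A2ML1 and KRTDAP, in all 3 calves, at 0.475, 0.546 and 0.344 UMIs per 10000, followed at 0.342 in calf 1 by cluster 12, at 0.265 in calf 2 by cluster 4 and at 0.138 in calf 3 by cluster 7. SPINK5 is a protease inhibitor and KRTDAP a protein of differentiating keratinocytes, and the cluster also had the highest score for granule markers. OCLN was highest in the same cluster in all 3 calves, at 0.0733, 0.0796 and 0.0573, and F11R in calves 1 and 2, at 0.998 and 0.757. For MARVELD2 and TJP1 the top cluster differed between the calves, and the correlations of the cluster order between calves were 0.00, -0.29 and -0.38 for MARVELD2 and 0.42, 0.51 and -0.18 for TJP1, so no order over clusters could be given at these counts.

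The calves differed more in some members than in others. CLDN1 was at 1.94, 3.11 and 4.50 UMIs per 10000 in the epithelial cells of calves 1, 2 and 3, a 2.32-fold range that 15.4% of 9862 genes of at least 0.02 UMIs per 10000 reached or exceeded. The 11 immediate-early and heat-shock genes were in the same order, at 61.9, 81.3 and 112 UMIs per 10000 in the upper and 27.6, 45.8 and 61.7 in the lower parts of the split described above, and their part in the CLDN1 difference was not tested. CLDN4 was at 2.60, 3.28 and 2.41, a 1.36-fold range, which 66.6% of genes reached. The ratio of CLDN1 to CLDN4 UMIs was therefore 0.746, 0.948 and 1.87, and which of them was the more abundant claudin differed between calves. TJP1 (0.0820, 0.0722 and 0.181) and CGN (0.223, 0.217 and 0.0880) had ranges of 2.51-fold and 2.53-fold, TJP1 being highest and CGN lowest in calf 3.

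CLDN7 differed most between calves. It was counted 564, 43 and 434 times in the epithelial cells of calves 1, 2 and 3, or 0.112, 0.00644 and 0.0632 UMIs per 10000. Calf 2 was 17.4-fold below calf 1 and 9.81-fold below calf 3, a range reached by 47 of the 9862 genes (0.477%). Calf 2 had the lowest CLDN7 level in each of the 13 epithelial clusters, although its 43 UMIs left from 0 to 8 in a cluster. Whether it belongs to the calf or to its library cannot be told apart.

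Pairs of the 8 epithelial members were counted in the same thinned epithelial cells and set against the number their separate shares give. Of 28 pairs, 14 had at least 5 expected double-positive cells in every calf. Of these, 3 were found together more often than expected in all 3 calves, 3 less often, and the median ratio of observed to expected was 1.01. At 4000 UMIs per cell, where 18 pairs had enough cells, 8 were found together more often in all 3 calves and 1 less often. CLDN1 and CLDN4 were found together in 462, 1500 and 1289 cells, 1.09, 1.05 and 1.06 times the expected number. When the expectation was formed within clusters, the ratios were 1.07, 1.01 and 1.02. F11R and CGN were found together in 31, 48 and 21 cells, 1.15, 1.27 and 1.71 times the expected number, and 1.08, 1.24 and 1.58 times within clusters. In cells thinned to 4000 UMIs instead, they were together in 89, 124 and 50 cells, and the ratios were only 1.02, 1.01 and 1.26. CLDN4 and MARVELD2 had ratios of 1.32, 1.11 and 1.07. CLDN1 and F11R were found together slightly less often than expected, at 0.953, 0.963 and 0.955. These ratios are descriptions of sparse counts and carry no test.

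In the endothelium, CLDN5 and F11R were found together in 14, 118 and 103 thinned cells of calves 1, 2 and 3, 0.953, 1.01 and 1.13 times the expected number, and F11R and TJP1 in 11 and 16 cells of calves 2 and 3, 1.15 and 1.2 times. Within the 2 endothelial clusters the ratios for CLDN5 and F11R were 0.926, 1.00 and 1.03. In epithelium, 37.6%, 29.3% and 27.5% of thinned cells had none of the 9 members at this depth and 3.1% to 3.48% had 3 or more.

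Of 60 other tight junction genes, 55 were in the matrices. Between endothelial and epithelial cells, 16 of the 40 tested were higher (40% against 23.9% of all genes) and 13 lower (32.5% against 22.7%), with a median log2 difference of -0.04 against -0.00 over all genes. The largest differences among the higher genes were those of the vessel-wall adhesion molecules ESAM (9.83, edgeR adjusted p = 2.3e-06) and JAM2 (7.27), of ILDR2 (5.65), CLDN11 (5.19, with 88 of its 93 endothelial UMIs in calf 2), JAM3 (4.48) and the multi-PDZ scaffold MPDZ (3.93). Among the lower genes they were the polarity genes PARD6B (-5.88), PARD3 (-4.03) and PATJ (-3.92), and the epithelial claudin CLDN3 (-4.67).

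In fibroblasts 13 of the 40 other genes were higher and 13 lower than in epithelium, 32.5% each, against 19.1% and 18.6% of all genes, with CLDN10 (8.85, from 26 UMIs against 3 in all epithelial cells), ESAM (7.38), CLMP (5.88), CLDN11 (5.56), MPDZ (4.15) and JAM3 (4.04) furthest up and MARVELD3 (no UMI), PATJ (-5.52), CXADR (-4.87) and PARD6B (-3.57) furthest down. In immune cells 5 were higher (12.5% against 22.4% of all genes) and 20 lower (50% against 23.3%), at a median of -1.13 against -0.09 over all genes. CLDN10 (5.71, from 5 UMIs), ESAM (3.82) and JAM3 (3.71) were among the higher, and CXADR (-5.54), AMOTL2 (-4.41), RAB13 (-4.20), PATJ (-4.14), AMOTL1 (-4.08), PARD6B (-3.78) and CLDN3 (-3.62) among the lower. The lower genes named here had from 3 (AMOTL2) to 18 (RAB13) UMIs in the immune sums.

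Between spinous-like and basal-like cells, 5 of the 37 other genes tested were higher and 7 lower, 13.5% and 18.9%, near the 16.1% and 15.9% of all genes. The scaffold gene TJP3 (log2 difference 2.17 ± 0.19, edgeR adjusted p = 7.7e-06) was higher, as was CLDN19 (2.44 ± 0.51, adjusted p = 0.0034), which was counted 28 times in spinous-like and 12 times in basal-like cells. Among the lower were the adhesion molecules JAM3 (-2.17) and JAM2 (-1.26), MARVELD1 (-1.0), MICALL2 (-0.91), AMOT (-0.89), USP53 (-0.74) and TJAP1 (-0.65). JAM3 and JAM2 had only 7 and 15 UMIs in spinous-like cells, and JAM2 passed narrowly (edgeR adjusted p = 0.048). Between cycling-like and basal-like cells, SYMPK (0.54) was higher, 2.7% against 15.5% of all genes, and 7 genes were lower, 18.9% against 12.8%, namely PRKCZ (-0.77), MICALL2 (-0.77), AMOTL2 (-0.68), PARD6B (-0.64), USP53 (-0.51), AMOTL1 (-0.47) and PARD3 (-0.42).

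Over 53 sums of at least 50 cells per calf and cluster, with each calf's mean taken off, the genes most like CLDN5 by Pearson's r were EGFL7 (0.92), TMOD3 (0.89) and RAMP2 (0.86). Those most like CLDN4 were KLF5 (0.94), PERP (0.92) and TRIM29 (0.91), and those most like CLDN1 were TNNI2 (0.89), CDCP1 (0.88) and LMO4 (0.85). For CGN they were KLC3 (0.93), CLCA2 (0.93) and SEL1L3 (0.92), for TJP1 LRP11 (0.88) and PGM2 (0.88), and for F11R MECOM (0.82), ADGRG1 (0.81) and MALL (0.80). F11R was itself the third nearest to MARVELD2 (0.78), after LRRC1 (0.79) and LPAR6 (0.79). The nearest to OCLN were EPHA1 (0.78), ESRP1 (0.77) and PAQR6 (0.74), and to CLDN7 FAM131C (0.85) and PKP1 (0.84). Over the 37 epithelial sums alone, CLDN1 was nearest to JUN (0.91), PNRC1 (0.90) and ZFP36L1 (0.90), CLDN4 to TM4SF1 (0.93), HBEGF (0.82) and EMP1 (0.81), and CGN to SLC10A5 (0.85), CDH1 (0.83) and TJP3 (0.82). The sums share libraries and differ in depth, so these correlations are descriptions only.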

How the data were processed

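The authors deposited 1 sparse matrix of raw UMI counts per calf, made from droplet 3′ libraries with Cell Ranger 3.1.0 on the ARS-UCD1.2 bovine genome. Barcodes with 500 to 4000 genes, at most 50000 UMIs and at most 40% of UMIs in 13 mitochondrial genes were kept, and 191, 908 and 879 predicted doublets were removed by a caller written for this purpose. Cells were merged by the Harmony method, also rewritten, and clustered by Leiden (leidenalg 0.10.2) without the tight junction genes and were named from marker lists. UMIs were summed per calf and class or layer, sums of under 20 cells were left out, and the sums were tested with edgeR 4.0.16 (R 4.3.3) with the calf as a block. The fit was also run on simulated counts, but these held no calf effect and so could not check the block. Sums of the same calf deviated together (r = 0.64 to 0.91 across layers and 0.08 to 0.51 across classes). The pairing is by calf, which cannot be told apart from its library. DESeq2 1.42.0, other normalizations, filters, clusterings and leaving out each calf were the alternatives. All 9 members were named in each comparison, with up to 10 called genes of largest difference from a list of 60 others, of which some are not reported here. The members and the lists were chosen with earlier results of these data known.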

Additional observations from a re-analysis of the deposited data

How the results depend on the processing

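The number of genes called was 5379 for endothelial, 4354 for fibroblast and 5276 for immune against epithelial cells, 3787 for spinous-like and 3354 for cycling-like against basal-like cells. Leaving out each calf in turn gave 3643 to 4938, 2743 to 4138, 2302 to 5283, 1742 to 2791 and 1578 to 2606, the fewest being without calf 3 in fibroblasts, immune and cycling-like cells and without calf 2 in spinous-like cells. Without the calf as a block 732 genes were called for spinous-like and 425 for cycling-like cells, and merging the libraries without Harmony gave 941 for cycling-like cells. Of the members' 24 called differences, 12 kept direction and call under each alternative run. Over all alternatives, 266 of 301 values kept both, 31 lost the call and 4 turned, all 4 of them CLDN4 in cycling-like cells, at 0.35 with doublets kept, 0.15 with no upper limit on genes, 0.03 without Harmony and 0.32 without the heat-shock-led cluster. Without the block, the 4 spinous-like and 3 cycling-like calls and the 3 of CLDN7 between classes were lost.

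Of the 18 differences not called, 15 of 254 values were called under an alternative and 29 turned. In brackets stands the other end of the range over the left-out calves. For spinous-like cells, CLDN1 turned to 0.59 with doublets kept, 0.03 with no upper limit, 0.05 at clustering resolution 1.2 and 0.13 without the heat-shock-led cluster, and MARVELD2 to -0.07 both without calf 1 and without Harmony. For cycling-like cells, CLDN1 turned to 0.23 with doublets kept, OCLN to -0.01 without calf 2, CGN to 0.09 without calf 2 (lowest -0.30), 0.26 with classes from marker scores, 0.08 at resolution 0.4 and 0.06 at 1.2. TJP1 there turned to 0.07 without calf 3 (lowest -0.24), 0.14 with doublets kept, 0.05 with marker scores, 0.34 without Harmony, 0.06 at resolution 0.4 and 0.01 at 1.2. MARVELD2 turned to -0.03 with no filter on low counts, -0.02 with a stricter one, -0.02 without the block, -0.16 without calf 1 (highest 0.16), -0.06 with marker scores and -0.34 without Harmony. Between classes, TJP1 in fibroblasts turned to -0.03 with no filter, -0.06 without calf 1 (highest 0.20), -0.09 with doublets kept and -0.02 with marker scores, and CLDN5 in immune cells to -7.67 without calf 3, where it had no UMI (highest 1.11). The cause of these changes was not tested.

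The median of all genes in the immune comparison was -0.09 with TMM and 0.04 with RLE normalization, so differences there are relative to that shift. The count of pairs found together more often was 3 at 2000 UMIs per cell, 8 at 4000 (with those less often going from 3 to 1), and 4 to 9 without 1 calf, the most being without calf 2. Shares of cells moved with the number of UMIs they were thinned to. Depth limits OCLN, MARVELD2, CLDN7 and TJP1 most, which were found in few cells, and the immune and fibroblast values of calf 1.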
